A study of Mus musculus with 6 samples.

Results

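The 9 genes described here encode the histone methyltransferase MLL and the proteins that tether it to chromatin or carry its signal to RNA polymerase II. They were chosen by name, as the rows of the deposited mouse expression table whose symbol is Kmt2a, Men1, Psip1, Dot1l, Mllt1, Mllt3, Mllt10, Aff1 or Aff4, and all 9 were found among 30037 named genes. All 9 passed the filter on low values. The libraries were poly(A) RNA from L-GMP cells, a granulocyte-monocyte-progenitor-like leukaemic fraction, sorted from bone marrow of mice aged 8 to 10 weeks with acute myeloid leukaemia. There were 3 libraries from Prmt6-/- leukaemia and 3 from WT leukaemia. The Prmt6 enzyme methylates arginine residues of proteins, among them arginine 2 of histone H3, a mark known to hinder methylation of the neighbouring lysine 4 by MLL, and the comparison asks how transcript levels differ when it is lost. The labels used here do not name the oncogene that drives the leukaemia, which both genotypes would share, nor say whether libraries within a genotype are from different mice. The p-values therefore measure only the spread between these libraries, which may be technical.

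MLL (Kmt2a) places methyl groups on lysine 4 of histone H3 and keeps Hox genes active in blood progenitors. Menin (Men1) and LEDGF (Psip1) bind its N terminus and hold it on chromatin. When a chromosomal translocation fuses that N terminus to a partner such as AF9 (Mllt3), ENL (Mllt1), AF10 (Mllt10) or AF4 (Aff1), the fusion draws in DOT1L, which methylates lysine 79 of histone H3, and the super elongation complex built on the AF4 family, which releases paused polymerase through the kinase P-TEFb. Menin and DOT1L inhibitors act on this machinery in leukaemia.

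The stretch of Kmt2a that menin reads lies at the very start of the coding sequence, and it is shown because it is the part that MLL fusions keep. The first 60 bases of the coding sequence are on chromosome 9 (chr9:44881215-44881274, minus strand, GRCm38, from GENCODE). Capitals mark the codons of the menin-binding motif, residues 6 to 14.
Kmt2a: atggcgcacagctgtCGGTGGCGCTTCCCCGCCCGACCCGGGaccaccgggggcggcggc
Reads from an introduced transgene that carries such a stretch could be counted as Kmt2a, or as Mllt3 or Mllt1 for the partner end. The sources used here do not say whether they were, and their part in these values was not tested.

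Of the 9 members, 1 was higher and 1 was lower in Prmt6-/- cells, and 7 did not pass the test. Mllt3, which encodes AF9, rose, and Men1, which encodes menin, fell. The test was limma on the deposited log2 values, with a Benjamini-Hochberg adjusted p under 0.05 over 15454 tested genes. Over all these genes 33.0% passed, 15.0% as higher and 18.0% as lower, so that 2 of 9 is no more than the background. The groups of 3 libraries did not overlap for 3 of the 9 members, against 47.4% of all tested genes. The median absolute difference was 0.14 for the members and 0.19 for the 5045 genes whose mean level lay in the members' range of 6.24 to 9.61, of which 41.0% passed. The median signed difference was 0.08 for the members and 0.01 for all tested genes, with 7 members above 0 and 2 below.

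**Figure D1:**
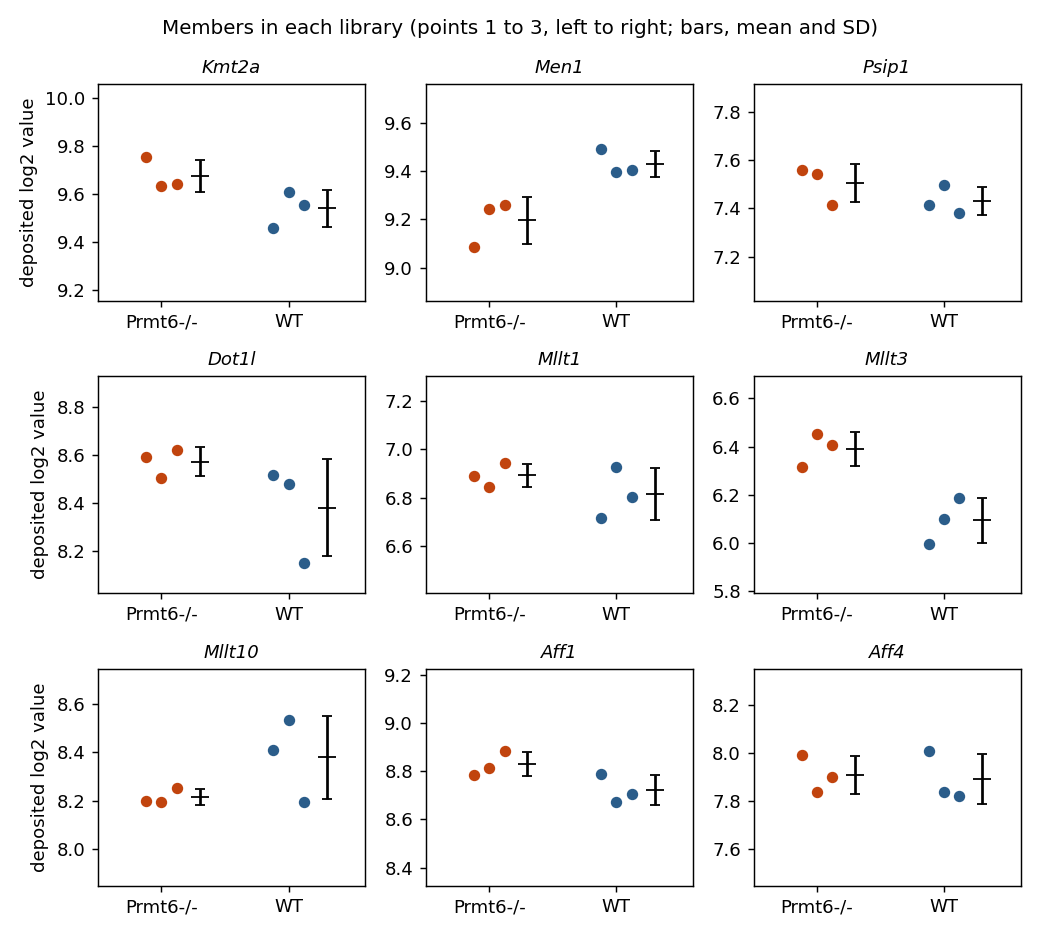
Deposited log2 value of each of the 9 members in 3 Prmt6-/- libraries (left) and 3 WT libraries (right), with the mean and SD beside the points; every panel spans the same height. The points of the genotypes are apart for Kmt2a, Men1 and Mllt3 and overlap for the other members.

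Prmt6 itself, the targeted gene on chromosome 3, averaged 5.45 ± 0.03 in Prmt6-/- cells and 7.61 ± 0.20 in WT cells (SD, n = 3 each). The authors' deposited table puts the log2 fold change of Prmt6 at -7.66. None of the 9 members lies on that chromosome. The library medians of the tested genes were 7.72 to 7.75, and libraries correlated across genes (Pearson) at 0.9987 to 0.9992 inside a genotype, against 0.9933 to 0.9961 across genotypes. Read depth is unknown, since the values are not counts. Of the genes that define the L-GMP gate, Cd34 averaged 10.5 in Prmt6-/- cells and 10.4 in WT cells, Kit 9.85 and 10.1, and Fcgr3 13.3 in both, while Fcgr2b fell to 11.5 in Prmt6-/- cells, against 12.4 in WT cells. The Kit difference of -0.29 did not pass (limma adjusted p = 0.0961), but the authors' deposited table calls Kit lower (log2 fold change -0.35, adjusted p 0.0481). Genes of granulocyte-monocyte progenitors moved in both directions: Elane rose by 1.45 and Ctsg by 0.51, and Irf8 fell by 0.70, while the other 4 of 7 did not pass, among them Mpo with a difference of -1.11 (limma adjusted p = 0.139). The log2 of the summed linear level of these 7 genes was 18.4 to 18.5 in Prmt6-/- libraries and 17.4 to 17.9 in WT libraries. Elane was the largest term in every library, with means of 18.0 in Prmt6-/- cells and 16.6 in WT cells. Among markers of other cell types, no list had a member at 0 in all libraries. The same sum for 6 macrophage genes was 9.53 to 10.1 in Prmt6-/- libraries and 11.8 to 12.3 in WT libraries, nearly all from Vcam1. Vcam1 was lower by 2.17, while Siglec1 of the same list was higher by 0.16 (limma adjusted p = 0.0191). The authors' deposited table gives log2 fold changes of -2.45 for Vcam1 and 1.51 for Siglec1, a gene of low level. The C1q genes stood between 1.09 and 2.83 in both genotypes. For 7 mature neutrophil genes the same sum was 10.7 to 11.7 in Prmt6-/- libraries and 10.6 to 10.9 in WT libraries. The upper end was Prmt6-/- library 3, where Ngp stood at 10.1, against 8.35 and 8.80 in the other Prmt6-/- libraries. Cxcr2 was higher by 1.18 and Camp by 0.97, and Mmp8 was lower by 0.53. The authors' deposited table calls Cxcr2 and Camp but not Mmp8 (adjusted p 0.204). The sums for 5 megakaryocyte, 6 erythroid, 6 B-cell and 6 T- and NK-cell genes lay between 4.63 and 6.01 in every library. Within them the erythroid Klf1 was higher by 0.22 and the megakaryocyte Gp1bb by 0.23 (limma adjusted p = 0.0171 and 0.00321). Their log2 fold changes in the authors' deposited table are 1.76 and 5.10 (adjusted p 0.0107 and 0.000237). The deposited scale understates the change of genes of such low level. No gene of the B-cell or T- and NK-cell lists passed. The sum for 6 stromal and endothelial genes was 10.7 to 11.05 in Prmt6-/- libraries and 11.2 to 11.5 in WT libraries. It came mostly from Pecam1, which fell by 0.41. The part of these differences in the members' results was not tested. In bulk RNA, fewer cells of a type and less RNA per cell cannot be told apart.

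Kmt2a, the methyltransferase itself (chromosome 9, 44803355 to 44881296, minus strand, with 36 exons in its longest transcript), stood at 9.75, 9.63 and 9.64 on the deposited log2 scale in Prmt6-/- libraries, against 9.46, 9.61 and 9.56 in WT libraries. All Prmt6-/- values were above all WT values, by a narrow margin. The difference of 0.14 (95% interval -0.01 to 0.28) missed the threshold (limma adjusted p = 0.145). An exact two-sided permutation test returned p = 0.1, which is the lower limit for 3 libraries set against 3. In the authors' deposited table Kmt2a has a log2 fold change of 0.17 (adjusted p 0.222).

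Men1 encodes menin, the adaptor that bridges MLL to LEDGF (chromosome 19, 6334979 to 6340891, plus strand). It measured 9.09, 9.24 and 9.26 in Prmt6-/- libraries, against 9.49, 9.39 and 9.40 in WT libraries. The groups did not overlap, and Prmt6-/- library 1 was the lowest. The difference was -0.23 (SE 0.068, 95% interval -0.39 to -0.08, limma adjusted p = 0.0258), which is 0.85 times the WT level on the deposited scale. In the authors' deposited table its log2 fold change is -0.30 (adjusted p 0.026). The call was narrow: without Prmt6-/- library 1 the difference was -0.18 (adjusted p = 0.0807), and it also ended without Prmt6-/- library 2 (0.0509), WT library 1 (0.0815) or WT library 2 (0.0519). It held in 7 of 11 alternatives on the deposited values, with differences between -0.27 and -0.18 over all of them.

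Psip1 encodes LEDGF, which reads methylated lysine 36 of histone H3 and brings the menin-MLL pair to transcribed genes (chromosome 4, 83455680 to 83486459). Its values were 7.56, 7.54 and 7.42 in Prmt6-/- libraries, against 7.41, 7.50 and 7.38 in WT libraries. The groups overlapped, and the difference of 0.08 (95% interval -0.08 to 0.23) missed the threshold (limma adjusted p = 0.448). It was 0.05 without Prmt6-/- library 1 and 0.12 without Prmt6-/- library 3. In the GENCODE transcripts 14.8% of the 31-base words of Psip1 recur in other genes, most often in Gm15773, so its value may hold reads of those genes.

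Dot1l encodes the main methyltransferase for lysine 79 of histone H3 (chromosome 10, 80755206 to 80795461). It stood at 8.59, 8.50 and 8.62 in Prmt6-/- libraries, against 8.52, 8.48 and 8.15 in WT libraries. WT library 3 was low and the remaining libraries lay close together. The difference was 0.19 (95% interval -0.03 to 0.41, limma adjusted p = 0.174), and 0.08 without WT library 3 (adjusted p = 0.458). In the authors' deposited table the log2 fold change is 0.26 (adjusted p 0.242).

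**Figure D2:**
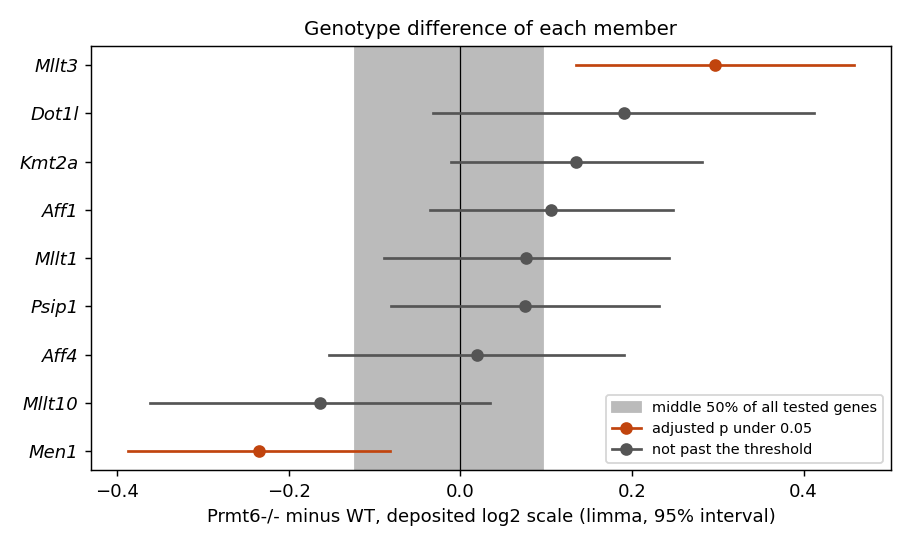
Prmt6-/- minus WT difference of each member on the deposited log2 scale, with limma's 95% interval; the grey band runs from the 25th to the 75th percentile of all tested genes. Mllt3 at 0.30 and Men1 at -0.23 passed the threshold, and the intervals of the other 7 members include 0.

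Mllt3 and Mllt1 encode AF9 and ENL, paired relatives whose YEATS domains read acylated histone H3 and whose C termini bind either DOT1L or AF4 proteins. Mllt3 (chromosome 4, 87769925 to 88033364, minus strand) measured 6.32, 6.45 and 6.41 in Prmt6-/- libraries, against 5.997, 6.10 and 6.19 in WT libraries. Every Prmt6-/- value was above every WT value. The means were 6.39 ± 0.07 in Prmt6-/- cells and 6.09 ± 0.09 in WT cells (SD, n = 3 each), a difference of 0.30 (SE 0.072, 95% interval 0.13 to 0.46, limma adjusted p = 0.0119) or 1.23-fold on the deposited scale. That scale pulls genes of low level towards a common value and understates their change. The authors' deposited table, from the same libraries, puts Mllt3 at a log2 fold change of 0.85, a 1.80-fold rise (adjusted p 0.0127). The call held in 10 of 11 alternatives on the deposited values and ended without Prmt6-/- library 2 (difference 0.27, adjusted p = 0.0509). The absolute difference of Mllt3 was above that of 79.3% of tested genes.

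Mllt1 (chromosome 17, 56892611 to 56935415) stood at 6.89, 6.84 and 6.94 in Prmt6-/- libraries, against 6.72, 6.93 and 6.80 in WT libraries. The groups overlapped, and the difference was 0.08 (95% interval -0.09 to 0.24, limma adjusted p = 0.464). It was 0.03 without WT library 1, 0.13 without WT library 2 and 0.05 after cyclic loess normalization.

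Mllt10 encodes AF10, a cofactor that helps DOT1L add higher methylation states (chromosome 2, 18055237 to 18212388). Its values were 8.20, 8.19 and 8.25 in Prmt6-/- libraries, against 8.41, 8.53 and 8.20 in WT libraries. WT library 3 fell among the Prmt6-/- libraries and the other WT libraries lay above them. The difference of -0.16 (95% interval -0.36 to 0.03) missed the threshold (limma adjusted p = 0.191). Without WT library 3 it was -0.26 and passed (adjusted p = 0.0297), and without WT library 2 it was -0.09 (adjusted p = 0.504). Of the 31-base words of Mllt10, 11.2% recur in other genes, mostly in Dnajc1. WT library 3 was thus the lowest library for Dot1l and the lowest WT library for Mllt10.

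Aff1 and Aff4 encode scaffolds of the super elongation complex, AF4 being the partner in a common infant leukaemia fusion. Aff1 (chromosome 5, 103692374 to 103855322) measured 8.79, 8.82 and 8.88 in Prmt6-/- libraries, against 8.79, 8.67 and 8.71 in WT libraries. The groups overlapped narrowly, and the difference of 0.11 (95% interval -0.04 to 0.25) missed the threshold (limma adjusted p = 0.234). Aff4 (chromosome 11, 53350833 to 53421830) stood at 7.99, 7.84 and 7.90 in Prmt6-/- libraries, against 8.01, 7.84 and 7.82 in WT libraries. The groups lay on top of each other, with a difference of 0.02 (95% interval -0.15 to 0.19, limma adjusted p = 0.871) whose sign turned without Prmt6-/- library 1 (-0.02), WT library 2 (-0.01) or WT library 3 (-0.02).

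Levels of different genes can be set side by side only per length. On the deposited log2 scale less the log2 of the longest coding transcript in kb, Men1 was the highest member at 7.62 in Prmt6-/- cells and 7.86 in WT cells, and Mllt3 the lowest at 3.79 in Prmt6-/- cells and 3.49 in WT cells. Mllt1 stood at 5.03 in Prmt6-/- cells and 4.95 in WT cells, and Aff4 at 4.57 and 4.55. Kmt2a, Dot1l, Psip1, Aff1 and Mllt10 lay together between 5.63 and 5.88 in Prmt6-/- cells and between 5.50 and 6.04 in WT cells. With the mean length of the coding transcripts instead, Men1 remained the highest, Aff4 moved up to 6.03 in Prmt6-/- cells and 6.01 in WT cells, and Mllt3 (5.18 in Prmt6-/- cells and 4.89 in WT cells) and Mllt1 lay side by side as the lowest. The order in the middle of the set therefore rests on the transcript length used. The deposited scale also compresses genes of low level, so these are not exact levels, least of all for Mllt3 and Mllt1, the members of lowest value.

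A promoter window each of Men1 and Mllt3 is shown because these are the members whose level differed. Both windows run from 250 bases before to 50 after the start and come from RefSeq (GRCm38.p6), where 8 of the 9 members had an entry. RefSeq lists more than 1 start site for both genes, and the window at the 5′ end of the gene is printed. The Men1 window is chr19:6334729-6335028 on the plus strand and the Mllt3 window is chr4:88033358-88033657 on the minus strand. Capitals mark GC boxes, GGGCGG or its reverse complement, where overlapping matches are counted.
Men1: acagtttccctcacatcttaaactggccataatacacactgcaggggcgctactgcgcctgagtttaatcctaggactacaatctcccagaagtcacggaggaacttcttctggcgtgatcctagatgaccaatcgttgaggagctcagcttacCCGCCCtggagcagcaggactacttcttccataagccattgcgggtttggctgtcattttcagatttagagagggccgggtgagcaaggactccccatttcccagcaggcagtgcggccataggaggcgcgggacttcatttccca
Mllt3: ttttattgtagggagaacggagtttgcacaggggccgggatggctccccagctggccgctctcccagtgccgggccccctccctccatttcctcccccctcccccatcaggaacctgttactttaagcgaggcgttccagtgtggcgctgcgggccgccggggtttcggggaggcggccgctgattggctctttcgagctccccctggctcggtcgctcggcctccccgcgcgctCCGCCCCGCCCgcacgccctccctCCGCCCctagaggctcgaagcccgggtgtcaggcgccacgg
The Men1 window holds 11 CpG pairs and 1 GC box, and the Mllt3 window 29 CpG pairs and 3 GC boxes, against a median of 7 CpG pairs over 32851 promoters, of which 35.7% hold a GC box on either strand. The ETS-type word CCGGAA, searched on both strands, is in neither window and in 14.9% of all promoters. The other windows of these genes differ: an internal Mllt3 start (chr4:87806274-87806573) has 4 CpG pairs and 0 GC boxes, and the other Men1 starts, whose windows overlap the printed one, have 16 CpG pairs and 1 GC box each. These matches describe the letters of the windows, and which start was used in these cells was not tested.

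The balance between paralogues was compared within each library, which removes transcript length from the change between genotypes. The Mllt1 level less the Mllt3 level, as log2, was 0.57, 0.39 and 0.54 in Prmt6-/- libraries, against 0.72, 0.83 and 0.62 in WT libraries. The balance lay lower in every Prmt6-/- library, by 0.22 on average. Mllt10 less Mllt6, the gene of the AF10 relative AF17, was 1.78, 1.86 and 1.95 in Prmt6-/- libraries, against 1.01, 1.65 and 1.34 in WT libraries, a shift of 0.52. Kmt2a less Kmt2b, the closest MLL paralogue, was 3.06, 2.90 and 2.95 in Prmt6-/- libraries, against 2.57, 2.54 and 2.76 in WT libraries, a shift of 0.35. For these 3 pairs the groups did not overlap, as was so for 47.4% of single tested genes. The share for other pairs of genes was not computed. Taken singly, the differences were -0.16 for Mllt10 and -0.69 for Mllt6, and 0.14 for Kmt2a and -0.21 for Kmt2b. They were 0.08 for Mllt1 and 0.30 for Mllt3. For each of the 3 pairs whose groups did not overlap, the balance reached the exact two-sided permutation p = 0.1, the smallest possible here. Adjusted over the 5 pairs this was 0.167, so none could pass. The shift was 0.09 for Aff1 less Aff4 and 0.17 for Psip1 less Hdgfrp2, the LEDGF relative, both with overlapping groups (exact permutation p = 0.3). For Aff1 less Aff4 it was 0.15 without Prmt6-/- library 1, 0.058 without Prmt6-/- library 2 and 0.054 without Prmt6-/- library 3. For Psip1 less Hdgfrp2 it was 0.11 without Prmt6-/- library 2, 0.30 without WT library 1 and 0.078 without WT library 2. No 31-base word is shared within any of the 5 pairs in the GENCODE transcripts. The partner of lower level in a pair is the more compressed by the deposited scale, so these shifts are not exact fold ratios.

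**Figure D3:**
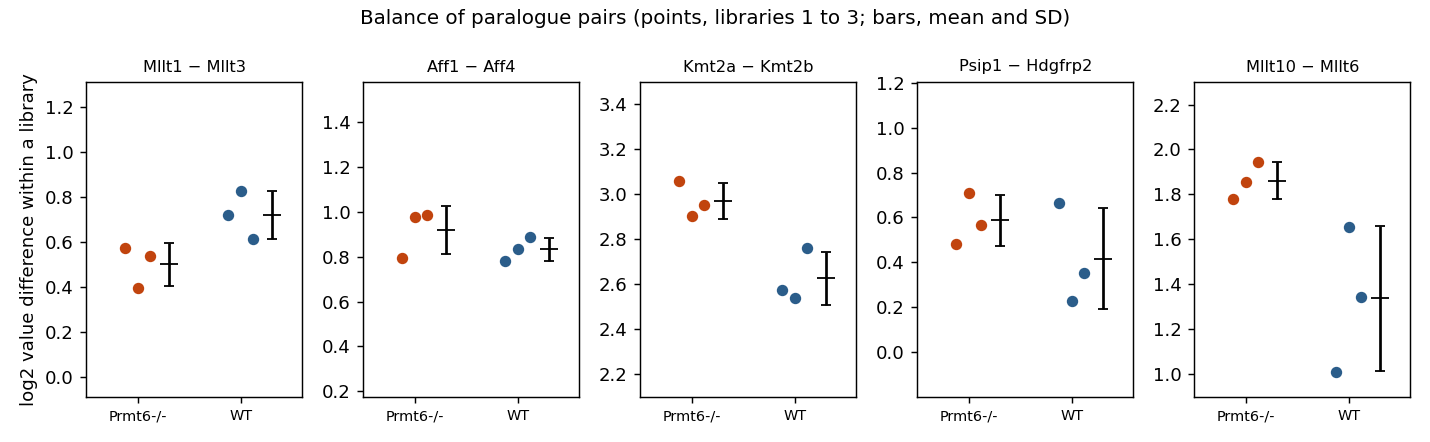
Difference in deposited log2 value between the members of 5 paralogue pairs in each Prmt6-/- library (left) and WT library (right), with mean and SD; every panel spans the same height. The groups are apart for Mllt1 less Mllt3, Kmt2a less Kmt2b and Mllt10 less Mllt6.

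Around the members, 70 further genes of the same complexes and of MLL-dependent targets were tested, of which 11 were higher and 15 lower in Prmt6-/- cells, with a median difference of -0.01. After quantile normalization the split turned, with 15 higher and 9 lower. The share called, 26 of 70, is close to the 33.0% of all tested genes. In the list of 8 genes drawn up for AF9 and AF10, 1 rose and 4 fell (median -0.17). The Mllt11 call was narrow (difference -0.19, limma adjusted p = 0.0474). It ended whichever library was left out, which left 3 called lower, and Mllt11 is not called in the authors' deposited table (adjusted p 0.117). Mllt6 fell to 6.42, 6.34 and 6.31 in Prmt6-/- libraries, against 7.40, 6.88 and 6.85 in WT libraries. Its difference of -0.69 (SE 0.13, limma adjusted p = 0.00436) was larger in size than that of any member, and the authors' deposited table gives a log2 fold change of -1.66. The AF9-binding corepressor Bcor fell by 0.50 and the Polycomb reader Cbx7 by 0.39, while the AF9-binding Polycomb protein Cbx8 rose by 0.28. The Cbx8 call ended without Prmt6-/- library 2 (adjusted p = 0.0544) or 3 (0.0554) or WT library 1 (0.0563), which left 0 called as higher in that list.

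Of 6 subunits of the PAF1 complex, which loads onto elongating polymerase and binds MLL, 3 fell and 1 rose (median -0.18). Counts in these short lists are read beside the 33.0% of all tested genes that passed. Rtf1 fell by 0.49, Paf1 by 0.25 and Wdr61 by 0.24, and Cdc73 rose by 0.24. The Cdc73 call ended without Prmt6-/- library 2 (0.138) or 3 (0.0943) or WT library 1 (0.0768), 2 (0.0637) or 3 (0.105), and in the authors' deposited table (0.0608). The Wdr61 call ended after quantile normalization (0.0641) and without Prmt6-/- library 1 (0.0709) or 2 (0.0686) or WT library 2 (0.0539) or 3 (0.0619), where these are limma adjusted p-values. Of 16 genes of P-TEFb and the super elongation complex 2 rose and 3 fell, with a median of -0.00104. The elongation factor subunit Supt4a fell by 0.65 and the P-TEFb inhibitor Hexim2 by 0.23. The ELL-associated factor Eaf1 rose by 0.19. The Hexim2 call ended without any 1 of 5 libraries, Prmt6-/- 1, 2 and 3 and WT 1 and 3 (limma adjusted p = 0.0551, 0.0686, 0.0662, 0.0788 and 0.0532 in that order). The Eaf1 call ended without Prmt6-/- library 2 (0.102), WT library 2 (0.0793) or WT library 3 (0.0734). The number called lower in this list was 1 to 3 and the number called higher 1 to 2 when 1 library was left out.

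**Figure D4:**
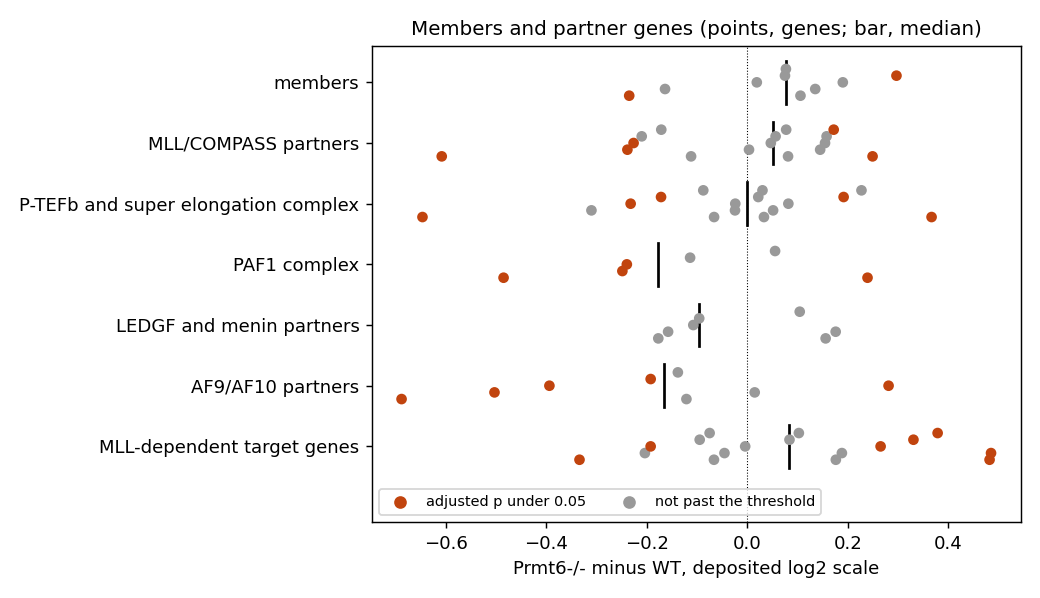
Prmt6-/- minus WT difference of the 9 members and of 70 partner and target genes in 6 lists on the deposited log2 scale, with a bar at each median. Medians run from -0.18 for the PAF1 complex to 0.08 for MLL-dependent targets, and each list but the LEDGF and menin partners holds genes past the threshold in both directions.

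Of 16 MLL-family methyltransferases and shared subunits 2 rose and 3 fell (median 0.05), beside 33.0% of all tested genes that passed. Ash2l, a core subunit that activates the methyltransferase, measured 9.76, 10.2 and 10.4 in Prmt6-/- libraries, against 10.8, 10.6 and 10.8 in WT libraries, a difference of -0.61 (limma adjusted p = 0.0115) with Prmt6-/- library 1 the lowest. The cofactor Hcfc1 fell by 0.24, the CpG-binding SETD1 subunit Cxxc1 rose by 0.25 and the core subunit Wdr5 rose by 0.17. Kmt2b differed by -0.21 and did not pass (limma adjusted p = 0.072), though it passed after cyclic loess normalization (-0.24, 0.0414) and without WT library 3 (-0.27, 0.0347), and stood at -0.13 without WT library 2. The Wdr5 call ended without Prmt6-/- library 1 (difference 0.15) or 2 (adjusted p = 0.101), without WT library 1 (0.0711) or 2 (0.126), without the low-value filter (0.0558) and in the fit blocked on replicate number (0.0513). The Hcfc1 call ended after quantile normalization (0.109) and without Prmt6-/- library 2 (0.114) or 3 (0.0807) or WT library 1 (0.0867) or 2 (0.0998). Leaving out 1 library gave 1 to 3 called higher and 1 to 5 called lower in this list.

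None of 7 LEDGF and menin partners passed in limma, and the authors' deposited table also calls 0 of them. An unadjusted limma p under 0.05 was found for 4 of the 7, and for 6621 of all 15454 tested genes. The Mediator subunit Med1 differed by 0.16, the MYC-binding Cdca7l by -0.16, Pogz by 0.18 and the replication kinase activator Dbf4 by -0.18, with limma adjusted p between 0.0826 and 0.0949. Leaving out 1 library gave up to 1 call in either direction. Of 17 genes that depend on MLL or menin in human or mouse cells, 5 rose and 2 fell (median 0.08). Of all tested genes 33.0% passed. The Hox cofactor Meis1 rose by 0.49 and the progenitor transcription factor Myb by 0.38, while Hoxa7 fell by 0.33. The number lower was 1 to 2 and the number higher 4 to 5 when 1 library was left out.

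The tested genes whose values over the 6 libraries, each less its own mean, lay nearest to those of Mllt3 were Hells, a chromatin remodeller of DNA methylation, Rrm2, a ribonucleotide reductase subunit, and Tiparp, a mono-ADP-ribosyltransferase, at Euclidean distances of 0.047, 0.070 and 0.073. Hells stood at 10.3, 10.4 and 10.4 in Prmt6-/- libraries, against 9.94, 10.1 and 10.1 in WT libraries. The differences were 0.31 for Hells, 0.27 for Rrm2 and 0.30 for Tiparp, beside 0.30 for Mllt3. These 3 genes were picked for nearness in the same values, so like differences follow from the choice. In the authors' deposited table their log2 fold changes are 0.37, 0.29 and 0.34, against 0.85 for Mllt3. The likeness is a description over 6 libraries, and all 3 genes are far more abundant on this scale, where values are compressed less than those of Mllt3. Rrm2 stood at 0.41 after quantile normalization, and its call ended without Prmt6-/- library 2 (limma adjusted p = 0.0609) or 3 (0.0523).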

How the data were processed

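Poly(A) RNA libraries from L-GMP cells were compared, 3 Prmt6-/- and 3 WT. Tools named in the submitters' processing notes are Trim Galore, kallisto and HOMER, none with a version, and the build is GRCm38. Per the file headers, HOMER's differential expression command was run on read counts. The sample values are log2 values that the authors normalized between samples before they were deposited. The transformation is not named. For each gene the authors' deposited table adds a log2 fold change with a p-value, raw and adjusted. Its header reads wild type against knockout, but its sign is knockout over wild type, as the sample values show.

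The table has 30037 named genes, 7932 of them at 0 throughout, and 1 row naming none, which was left out. limma 3.58.1 in R 4.3.3 (trended variance, two-sided, adjusted p under 0.05 by Benjamini-Hochberg) was fitted on the whole table, for the 15454 genes that reached a value of 1 in 3 or more libraries. Differences are Prmt6-/- minus WT. Exact permutation tests were used for single values. In simulated data with 15454 genes, 50 genes were planted at each of the log2 sizes 0.25, 0.5, 1 and 2, and the fit recovered 30%, 82%, 96% and 100%, with 9 false calls. There 15254 genes were left unchanged, whereas 33.0% of tested genes were called in the real data. The adjusted p depends on that share, so these rates do not carry over to the members. Members, lists and tests were chosen with earlier results of these data known. Named genes are the members, Prmt6, the paralogues, up to 4 genes of smallest p per list, and the 3 genes nearest to Mllt3. Some genes that this rule would name are not reported here. Other genes named are markers or were chosen after their values were seen. Hdgfrp2 is the row of the gene now called Hdgfl2. The 31-base words, an assumed kallisto word length, and transcript lengths come from GENCODE M21. Alternatives were other normalizations and filters, limma without trend, a replicate block, leaving out each library, and the authors' deposited test.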

Additional observations from a re-analysis of the deposited data

How the results depend on the processing

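Mllt3 was the member called higher under every alternative but 1, with 0 members called higher without Prmt6-/- library 2. Men1 was called lower throughout except when 1 library was left out, where the number of members called lower ranged from 0 to 2 and the number called higher from 0 to 1. Aff4 reversed to -0.0223 without Prmt6-/- library 1, -0.00613 without WT library 2 and -0.0156 without WT library 3, within a range of -0.0223 to 0.0786 when 1 library was left out. Hdgfrp2 reversed to 0.0301 without WT library 2, within a range of -0.228 to 0.0301. The cause was not tested. Of the 70 partner and target genes, the number called lower was 9 after quantile normalization against 15, and 8 to 14 when 1 library was left out. The number called higher was 15 after quantile normalization, 14 after cyclic loess normalization and 13 with the replicate block, and 7 to 10 when 1 library was left out, against 11. After quantile normalization the majority of calls among these genes thus turned to higher. No paralogue balance changed direction under the alternatives run for it: quantile and cyclic loess normalization and leaving out each library. The replicate numbers were not shown to pair the libraries: same-numbered deviations correlated at 0.095, 0.073 and 0.17, although each library correlated best with its own number. With the replicate block 5074 genes were called, against 5102 without it, 4774 of them shared, and the same 2 members passed. All tested genes called ranged within 1.5 times the count reported in each direction. Depth is unknown, so no counting limit is given.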
